A study of Mus musculus with 6 samples.

Results

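A list of 40 genes of DNA damage repair and checkpoint signalling was followed in MLECs, mouse lung endothelial cells kept in culture. A gene was included when its name in the deposited table stood on the list, and all 40 were found among the 17463 entries. They comprised 10 homologous recombination genes, 7 Fanconi anaemia genes, 4 each for mismatch repair, base excision repair, nucleotide excision repair, end joining and checkpoint kinases, and the 3 subunits of the MRE11 complex. The study asks how SUMOylation, the attachment of a small protein modifier, affects the Notch-induced repressor HEY1 in endothelium. Its 6 RNA-seq libraries came from cells without treatment, with 3 of genotype HEY1-WT KI and 3 of genotype HEY1-3KR KI, all grown in EGM-2 with serum. The cells were taken from mice described as Hey1 iEC-KO, a knockout that both groups share, with a knock-in (iEC-KI) of HEY1-WT or HEY1-3KR, and neither iEC nor 3KR is spelled out. The labels do not give the promoter that drives the knock-in or the enzyme that activates it, the age of the mice, or how many mice were used. Nor do they tell if replicates are distinct cultures, so p-values measure the spread between these libraries only, which may be technical.

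Cells repair DNA by routes that differ in the lesion they act on and in when they are used. Homologous recombination copies the sister chromatid to mend a double-strand break and the Fanconi anaemia pathway unhooks crosslinks between strands, so both work mainly during and after DNA replication, as does mismatch repair, which corrects replication errors. Base excision repair, nucleotide excision repair and end joining also act in cells that do not divide. Many genes of the replication-linked routes are transcribed under E2F factors as cells enter S phase.

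Hey1 itself read 2.20 ± 0.0426 FPKM with HEY1-WT KI against 5.27 ± 0.422 FPKM with HEY1-3KR KI (limma adjusted p = 2.4e-06), a row that may hold reads of the knock-in and is no test of the knockout. The libraries resembled each other closely within a genotype (Pearson r of 0.994 to 0.996 across genes, against 0.960 to 0.964 between genotypes). Pan-endothelial genes such as Pecam1, Cdh5 and Kdr were present, and the share of the 10 listed in all FPKM was 0.0844% ± 0.00289 with HEY1-WT KI against 0.142% ± 0.00291 with HEY1-3KR KI (SD, n = 3 libraries each). FPKM counts fragments relative to transcript length and to the mapped total of the library. Markers of other cells were present too. The 10 macrophage and monocyte markers held 1.39% to 1.4% in HEY1-WT KI libraries and 1.55% to 1.65% in HEY1-3KR KI libraries, with 10 of 10 markers higher in all HEY1-3KR KI libraries. Lyz2, by far the most abundant, dominates that share and had the smallest ratio of mean FPKM, 1.11. The largest was 5.18, for Itgam, and 6 of the 10 reached 1.5. The 8 fibroblast markers held 0.218% to 0.225% and 0.424% to 0.432% (7 of 8 higher), and the 8 lung epithelial markers 0.0393% to 0.080% and 0.153% to 0.232% (7 of 8 higher). Epithelial markers had ratios of mean FPKM from 2.35 to 17.5, the largest for Sftpb, and Scgb1a1, the most abundant, overlapped between genotypes. Their median ratio was 3.61, against 1.55 for macrophage, 1.74 for tested fibroblast and 1.63 for endothelial markers. The 8 smooth muscle and pericyte markers held 0.403% to 0.408% and 0.407% to 0.413%, with 1 higher and 3 lower (exact permutation p = 0.2). In each of the other 4 lists, the endothelial one included, every HEY1-3KR KI library was above every HEY1-WT KI library (two-sided exact permutation p = 0.1 for each, which is the floor with 3 libraries a side). No listed marker was at 0 in all libraries. In bulk RNA, more cells of a type and more RNA per cell cannot be told apart, and the part of these other cells in the repair gene differences was not tested. If all 3 libraries of 1 group shared a batch, batch and genotype cannot be told apart here.

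Repair transcripts were mostly scarce. The median HEY1-WT KI level of the 39 genes that reached the filter on low values was 2.40 FPKM, against 7.27 FPKM for all 11432 genes tested, and 27 of the 39 averaged under 5 FPKM there. The filter kept genes that reached 1 FPKM in 3 or more libraries. Apex1, the endonuclease that cuts at abasic sites, and Parp1, the strand-break sensor that builds poly(ADP-ribose), stood highest, at 25.8 and 21.6 FPKM in HEY1-WT KI on this length-scaled unit. Rad51c, a homologous recombination gene, stayed below the filter at 0.573, 0.731 and 0.726 FPKM with HEY1-WT KI against 0.777, 0.752 and 0.763 FPKM with HEY1-3KR KI. Its HEY1-3KR KI values were all above those of HEY1-WT KI, by a margin that is small beside the spread of the HEY1-WT KI libraries. Palb2 and Msh3 reached the filter through their HEY1-3KR KI libraries alone, so their entry into the test depended on the side where they were high, and the counts below describe the genes without serving as support.

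**Figure D1:**
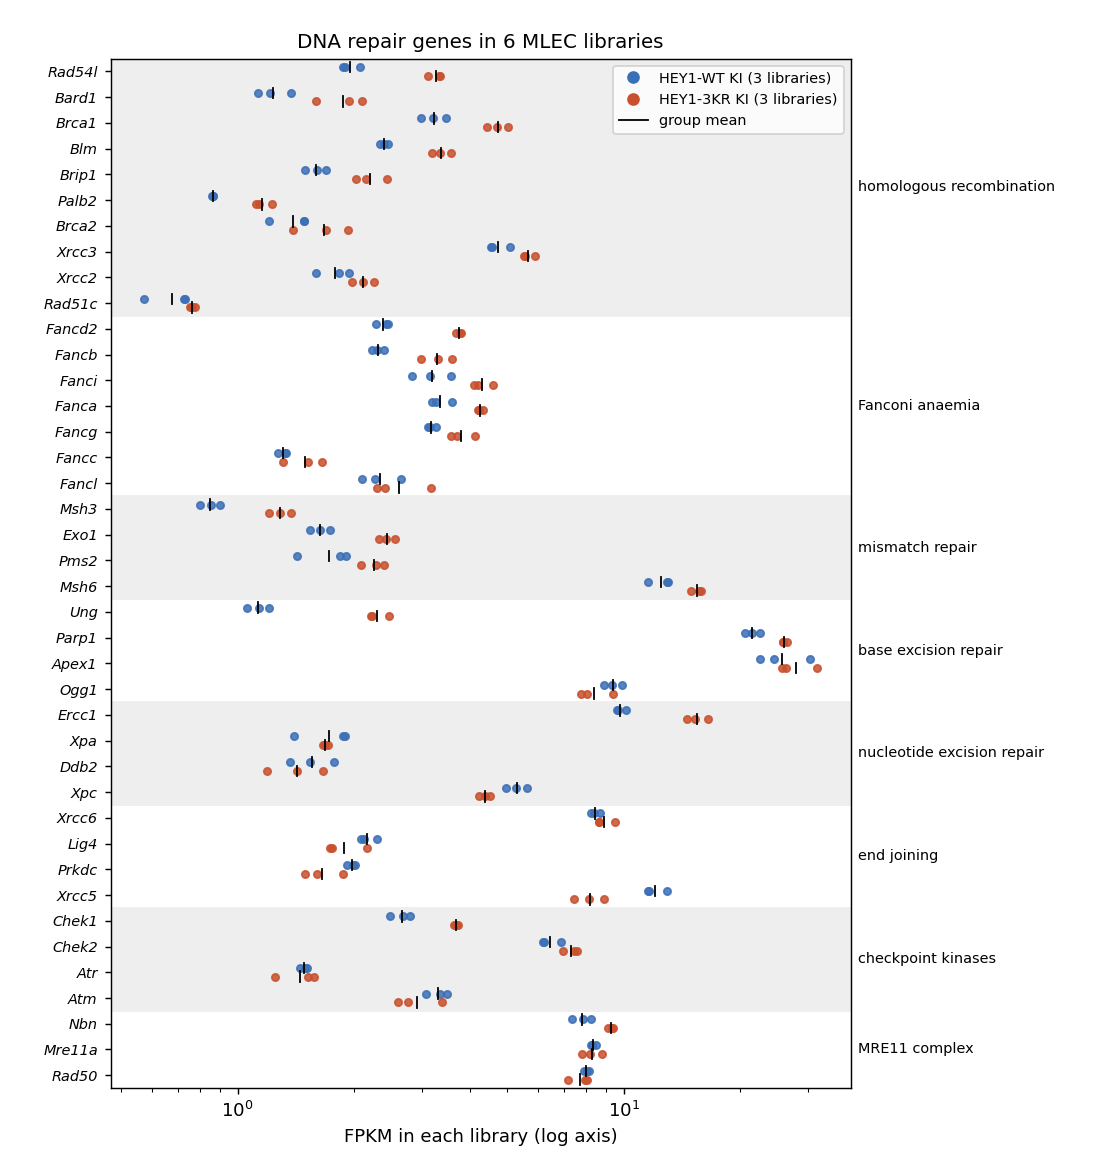
FPKM of the 40 repair genes on a log axis, 1 point per library (blue HEY1-WT KI, red HEY1-3KR KI, 3 libraries each), with a black bar at each group mean and genes grouped by repair class. Homologous recombination, Fanconi and mismatch genes lie to the right in HEY1-3KR KI for most genes, whereas Mre11a, Rad50, Atr and Xpa overlap between genotypes and Xrcc5 lies to the left.

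Of the 39 tested repair genes, 22 rose in HEY1-3KR KI, 2 fell and 15 did not pass (limma over all 11432 genes, Benjamini-Hochberg adjusted p below 0.05). Among all genes tested, 29.9% rose and 23.4% fell by the same rule, 53.2% in either direction. The share that rose was 56.4% of the tested repair genes, whose median log2 fold change was 0.21 on the log2(FPKM + 1) scale, against 0.02 for all genes tested. The 3 libraries of HEY1-3KR KI lay wholly above those of HEY1-WT KI for 23 of the 39 and wholly below for 3, where 34.1% and 27.0% of all genes did so. The number that fell was 5 when HEY1-3KR KI replicate 2 was left out. The ratio of mean FPKM reached 1.5 for 6 repair genes, Ung, Rad54l, Ercc1, Fancd2, Bard1 and Msh3, and 10.3% of all genes tested reached it. Without the filter on low values, 21 of the 40 rose and 2 fell, where 22.6% and 16.6% of 17171 entries did so.

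The difference was uneven between classes. Of the 20 tested genes of homologous recombination, the Fanconi pathway and mismatch repair, 16 rose, none fell, and all 20 had a positive log2 fold change (median 0.30). Of the 19 genes of the remaining classes, 6 rose, 2 fell and 11 did not pass (median -0.01). The share that rose was 80% in the first set and 31.6% in the second. Among all genes tested 29.9% rose and 23.4% fell, so the second set was near the share of rises over all genes. Each class count below stands beside those 2 shares. Classes were pooled into these 2 sets with earlier results of these data known. The first set includes Palb2 and Msh3, which reached the filter through HEY1-3KR KI libraries alone. The difference between these 2 sets of classes was not tested, and it describes the genes without serving as support.

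**Figure D2:**
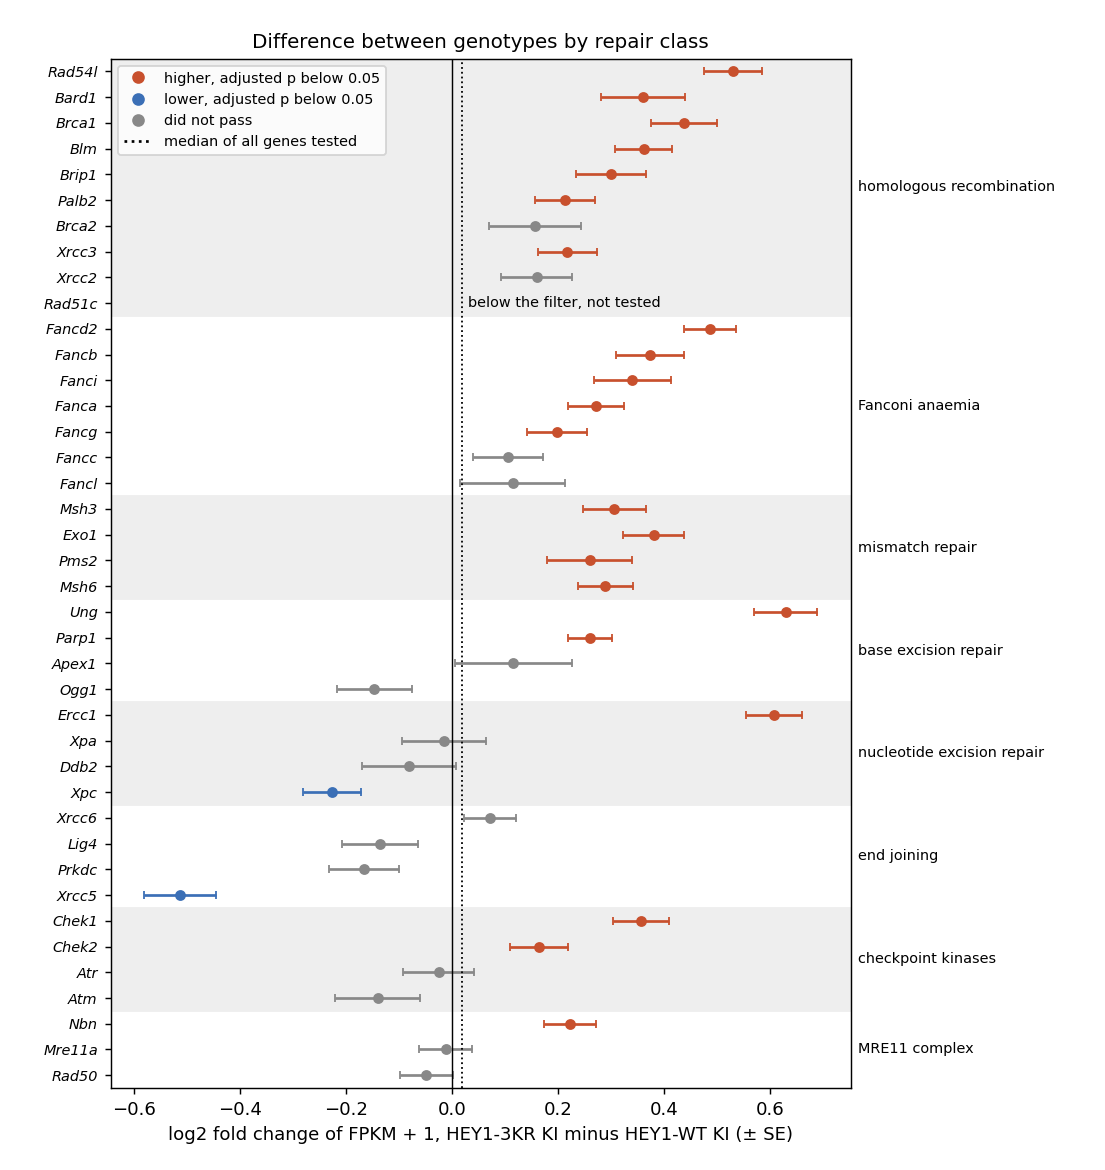
Log2 fold change of FPKM + 1, HEY1-3KR KI minus HEY1-WT KI, with its SE from limma (n = 3 libraries per genotype), for each repair gene by class, coloured by whether the adjusted p was below 0.05. All tested genes of the top 3 classes lie above 0, Ung and Ercc1 lie farthest to the right and Xrcc5 farthest to the left.

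In homologous recombination, 7 of 9 tested genes rose. Rad54l, a motor protein that drives strand invasion (chromosome 4 at 116094261 to 116123700 in GRCm38, as for the positions that follow) read 1.9, 2.08 and 1.88 FPKM with HEY1-WT KI against 3.33, 3.35 and 3.11 FPKM with HEY1-3KR KI. The lowest HEY1-3KR KI library was well above the highest HEY1-WT KI library, and the mean rose 1.67-fold (log2 fold change 0.53 ± 0.0550, SE; limma adjusted p = 5.6e-05). Brca1, which promotes resection of broken ends and recruits the recombination machinery (chromosome 11 at 101488761 to 101551955), read 2.99, 3.47 and 3.21 FPKM with HEY1-WT KI against 4.42, 5.03 and 4.71 FPKM with HEY1-3KR KI. The groups did not overlap and the mean rose 1.47-fold (log2 fold change 0.44 ± 0.0630; limma adjusted p = 4.2e-04). Bard1, its partner in a ubiquitin ligase, read 1.13, 1.21 and 1.37 FPKM with HEY1-WT KI against 2.1, 1.95 and 1.59 FPKM with HEY1-3KR KI. HEY1-3KR KI library 3 lay closest to the HEY1-WT KI range, and Bard1 rose 1.52-fold (log2 fold change 0.36 ± 0.0800; limma adjusted p = 0.00479). Blm, a RecQ helicase that dissolves joined DNA molecules, rose 1.41-fold, from 2.40 ± 0.0524 to 3.37 ± 0.195 FPKM (SD, n = 3; limma adjusted p = 5.2e-04). Brip1, a helicase that binds BRCA1, rose 1.38-fold from 1.60 ± 0.0997 to 2.20 ± 0.214 FPKM (limma adjusted p = 0.00468). Palb2, which bridges BRCA1 and BRCA2, rose 1.35-fold from 0.862 ± 0.00350 to 1.16 ± 0.0596 FPKM (limma adjusted p = 0.0113), and did not pass after quantile normalization (log2 fold change 0.13, limma adjusted p = 0.0763).

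The remaining genes of the route act in strand exchange. Brca2, which prepares single-stranded DNA for strand exchange, read 1.20, 1.49 and 1.49 FPKM with HEY1-WT KI against 1.4, 1.93 and 1.70 FPKM with HEY1-3KR KI. A single HEY1-3KR KI library lay within the HEY1-WT KI range and Brca2 did not pass (log2 fold change 0.16 ± 0.0873; limma adjusted p = 0.162). Xrcc3, which acts in the same step, rose 1.20-fold, from 4.73 ± 0.313 to 5.66 ± 0.200 FPKM (limma adjusted p = 0.00918). Xrcc2 had groups that did not overlap, at 1.79 ± 0.181 and 2.12 ± 0.136 FPKM, and did not pass (limma adjusted p = 0.0737).

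In the Fanconi pathway, a core complex that includes FANCA, FANCB, FANCC, FANCG and the ubiquitin ligase subunit FANCL attaches ubiquitin to the FANCD2 and FANCI pair. Fancd2 (chromosome 6 at 113531640 to 113597020) read 2.28, 2.42 and 2.45 FPKM with HEY1-WT KI against 3.77, 3.79 and 3.67 FPKM with HEY1-3KR KI. The libraries of each genotype lay close together and far from the other genotype, and the mean rose 1.57-fold (log2 fold change 0.49 ± 0.0495; limma adjusted p = 5.0e-05). Fanci read 3.16, 3.57 and 2.83 FPKM with HEY1-WT KI against 4.6, 4.19 and 4.09 FPKM with HEY1-3KR KI. The groups did not overlap and Fanci rose 1.35-fold (limma adjusted p = 0.00412). In the core complex, Fancb on the X chromosome rose 1.43-fold from 2.31 ± 0.0836 to 3.29 ± 0.307 FPKM (limma adjusted p = 0.00116). Fanca rose 1.27-fold from 3.35 ± 0.214 to 4.25 ± 0.0621 FPKM and Fancg 1.20-fold from 3.18 ± 0.0829 to 3.80 ± 0.278 FPKM (limma adjusted p = 0.00239 and 0.0173). Fancc and Fancl did not pass, at log2 fold changes of 0.11 ± 0.0658 and 0.12 ± 0.0990 (limma adjusted p = 0.206 and 0.356). For Fancl a single HEY1-3KR KI library, at 3.17 FPKM, stood above the other 5, which ran from 2.1 to 2.65 FPKM.

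All 4 mismatch repair genes rose. Msh6, which recognises base mismatches (chromosome 17 at 87975050 to 87990892), read 13.0, 11.6 and 12.9 FPKM with HEY1-WT KI against 15.8, 15.0 and 15.7 FPKM with HEY1-3KR KI. It was the most abundant gene of its class and rose 1.24-fold with groups that did not overlap (log2 fold change 0.29 ± 0.0518; limma adjusted p = 0.0015). Msh3, which recognises insertion and deletion loops, was scarcer, at 0.797, 0.902 and 0.853 FPKM with HEY1-WT KI against 1.21, 1.28 and 1.37 FPKM with HEY1-3KR KI, and rose 1.52-fold (limma adjusted p = 0.0024). Exo1, the exonuclease that removes the faulty strand, rose 1.49-fold from 1.64 ± 0.10 to 2.44 ± 0.116 FPKM (limma adjusted p = 5.5e-04). Pms2, an endonuclease subunit, read 1.42, 1.84 and 1.92 FPKM with HEY1-WT KI against 2.39, 2.29 and 2.09 FPKM with HEY1-3KR KI and rose 1.31-fold (limma adjusted p = 0.0236). Pms2 no longer passed when HEY1-WT KI replicate 1, HEY1-3KR KI replicate 1 or HEY1-3KR KI replicate 2 was left out, at limma adjusted p of 0.0604, 0.0773 and 0.0618. Fancg of the Fanconi pathway no longer passed when HEY1-WT KI replicate 2 or 3 or HEY1-3KR KI replicate 2 was left out, at 0.0538, 0.0505 and 0.0511.

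Base excision repair was split. Ung, the glycosylase that removes uracil from DNA (chromosome 5 at 114130366 to 114139321), had the largest ratio of the 40 genes. It read 1.20, 1.13 and 1.06 FPKM with HEY1-WT KI against 2.21, 2.22 and 2.47 FPKM with HEY1-3KR KI, a rise of 2.03-fold (log2 fold change 0.63 ± 0.0596; limma adjusted p = 3.2e-05). Every HEY1-3KR KI library was well above every HEY1-WT KI library. Parp1 (chromosome 1 at 180568891 to 180600999) read 20.6, 22.5 and 21.5 FPKM with HEY1-WT KI against 25.8, 25.8 and 26.4 FPKM with HEY1-3KR KI and rose 1.21-fold with tight groups (limma adjusted p = 7.2e-04). Apex1 overlapped between genotypes, at 24.5, 22.5 and 30.3 FPKM with HEY1-WT KI against 26.4, 25.8 and 31.7 FPKM with HEY1-3KR KI. Replicate 3 was the highest library of both genotypes (limma adjusted p = 0.399). Ogg1, the glycosylase for oxidised guanine, read 9.37 ± 0.512 and 8.39 ± 0.879 FPKM and did not pass (limma adjusted p = 0.112). Without HEY1-3KR KI replicate 1, Ogg1 passed as lower, at a log2 fold change of -0.22 and a limma adjusted p of 0.0159.

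Nucleotide excision repair held a gene that rose and a gene that fell. Ercc1, the partner of the XPF nuclease that cuts on the 5′ side of a lesion and also acts in crosslink repair (chromosome 7 at 19344067 to 19356524), read 9.61, 9.65 and 10.2 FPKM with HEY1-WT KI against 16.6, 14.6 and 15.3 FPKM with HEY1-3KR KI. The ratio was 1.58-fold and the groups were far apart (log2 fold change 0.61 ± 0.0522; limma adjusted p = 1.8e-05). Xpc, the sensor of helix distortion (chromosome 6 at 91489305 to 91515888), read 4.96, 5.63 and 5.26 FPKM with HEY1-WT KI against 4.22, 4.51 and 4.37 FPKM with HEY1-3KR KI. Its groups did not overlap either, and it fell, 1.21-fold lower in HEY1-3KR KI (log2 fold change -0.23 ± 0.0546; limma adjusted p = 0.00754). Xpa, which checks the damaged strand, and Ddb2, which recognises ultraviolet lesions, did not pass. Xpa read 1.72 ± 0.284 and 1.69 ± 0.0275 FPKM (log2 fold change -0.01 ± 0.0799) and Ddb2 1.56 ± 0.205 and 1.43 ± 0.237 FPKM (log2 fold change -0.08 ± 0.0886).

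No end joining gene rose. Xrcc5, which encodes KU80, a subunit of the KU ring that holds broken ends (chromosome 1 at 72307417 to 72394953), fell the most of the 40 genes. It read 13.0, 11.6 and 11.6 FPKM with HEY1-WT KI against 7.44, 8.91 and 8.15 FPKM with HEY1-3KR KI, and the highest HEY1-3KR KI library was below the lowest HEY1-WT KI library. The mean was 1.48-fold lower (log2 fold change -0.51 ± 0.0678; limma adjusted p = 2.5e-04). Its obligate partner Xrcc6, which encodes KU70, did not pass, at 8.43 ± 0.224 and 8.92 ± 0.491 FPKM (log2 fold change 0.07 ± 0.0492; limma adjusted p = 0.249). Prkdc, the catalytic subunit of the DNA-dependent protein kinase, read 1.92, 1.99 and 2.02 FPKM with HEY1-WT KI against 1.61, 1.87 and 1.49 FPKM with HEY1-3KR KI. The groups did not overlap but the change did not pass (log2 fold change -0.17 ± 0.0659; limma adjusted p = 0.0618). Lig4, the ligase of this route, read 2.17 ± 0.111 and 1.89 ± 0.242 FPKM and did not pass (log2 fold change -0.14 ± 0.0709; limma adjusted p = 0.14). Without HEY1-3KR KI replicate 2, Prkdc and Lig4 passed as lower (limma adjusted p = 0.0175 and 0.0271), and that library was the highest of its group for both.

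Among checkpoint kinases, the effector Chek1, which restrains the cell cycle under replication stress (chromosome 9 at 36708482 to 36726658), read 2.69, 2.49 and 2.80 FPKM with HEY1-WT KI against 3.73, 3.68 and 3.65 FPKM with HEY1-3KR KI. The HEY1-3KR KI libraries were close together and all above the other group, and Chek1 rose 1.39-fold (log2 fold change 0.36 ± 0.0527; limma adjusted p = 4.9e-04). Chek2, the effector of the double-strand break response, rose 1.14-fold, from 6.43 ± 0.406 to 7.32 ± 0.303 FPKM (limma adjusted p = 0.0323). It no longer passed when HEY1-WT KI replicate 1 or 3 or HEY1-3KR KI replicate 1 or 2 was left out, at limma adjusted p of 0.0909, 0.105, 0.0891 and 0.0928. The apical kinases did not pass. Atm, activated by double-strand breaks, read 3.30 ± 0.202 and 2.92 ± 0.417 FPKM (log2 fold change -0.14 ± 0.0800; limma adjusted p = 0.174). Atr, activated by stretches of single-stranded DNA, read 1.49 ± 0.0299 and 1.45 ± 0.176 FPKM (log2 fold change -0.02 ± 0.0667; limma adjusted p = 0.78). Without HEY1-3KR KI replicate 2, Atm passed as lower (log2 fold change -0.22, limma adjusted p = 0.0223).

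In the MRE11 complex, which senses and trims broken ends and helps to activate ATM, 1 of 3 subunits rose. Nbn read 8.24, 7.83 and 7.37 FPKM with HEY1-WT KI against 9.41, 9.34 and 9.09 FPKM with HEY1-3KR KI and rose 1.19-fold without overlap (log2 fold change 0.22 ± 0.0485; limma adjusted p = 0.00433). Mre11a and Rad50 overlapped between genotypes, at log2 fold changes of -0.01 ± 0.0499 and -0.05 ± 0.050 (limma adjusted p = 0.865 and 0.446). All 3 had similar levels in HEY1-WT KI, between 7.81 and 8.33 FPKM.

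Other genes of the same routes were listed as well, 114 of which had an entry and 109 were tested. Of these 45 rose (41.3%), 15 fell and 49 did not pass (median log2 fold change 0.11), where 29.9% of all genes tested rose and 23.4% fell. Mismatch repair partners, a list that includes replication factors, had 10 of 13 higher and none lower (median 0.45), among them Pcna, the sliding clamp of DNA polymerases, 1.47-fold higher, and the polymerase subunit Pold2, 1.31-fold higher. Damage signalling genes had 9 of 16 higher and 1 lower, with H2ax, the histone variant that is phosphorylated around breaks, 1.27-fold higher and Rad9a, a subunit of the checkpoint clamp, 1.15-fold lower. In base excision repair 9 of 18 rose and 2 fell, with the flap nuclease Fen1 1.54-fold higher. In homologous recombination 10 of 21 rose and 1 fell. There the single-strand binding subunit Rpa2 rose 1.53-fold, from 7.86 ± 0.0347 to 12 ± 0.507 FPKM, while Rpa1 did not pass, at a log2 fold change of 0.03 ± 0.0350.

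Of 15 further Fanconi genes tested, 4 rose and 1 fell, a share of rises of 26.7% against 29.9% of all genes. Usp1, which removes ubiquitin from FANCD2, rose 1.49-fold, whereas Faap20, a core complex partner, had a log2 fold change of 0.00 ± 0.0901. Nucleotide excision repair had more lower than higher genes, with 8 of 16 lower and 1 higher (median -0.16). The most abundant of them were Ddb1, an adaptor of the CUL4 ubiquitin ligase, and Rad23b, a partner of XPC. Ddb1 fell from 147 ± 3.77 to 129 ± 1.52 FPKM and Rad23b from 61.5 ± 4.76 to 48.4 ± 4.25 FPKM. End joining had 2 of 10 higher and 2 lower, and of the gap-filling polymerases Polm fell (1.24-fold lower; limma adjusted p = 0.0289) and Poll did not pass (log2 fold change 0.13 ± 0.0517; limma adjusted p = 0.0608).

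**Figure D3:**
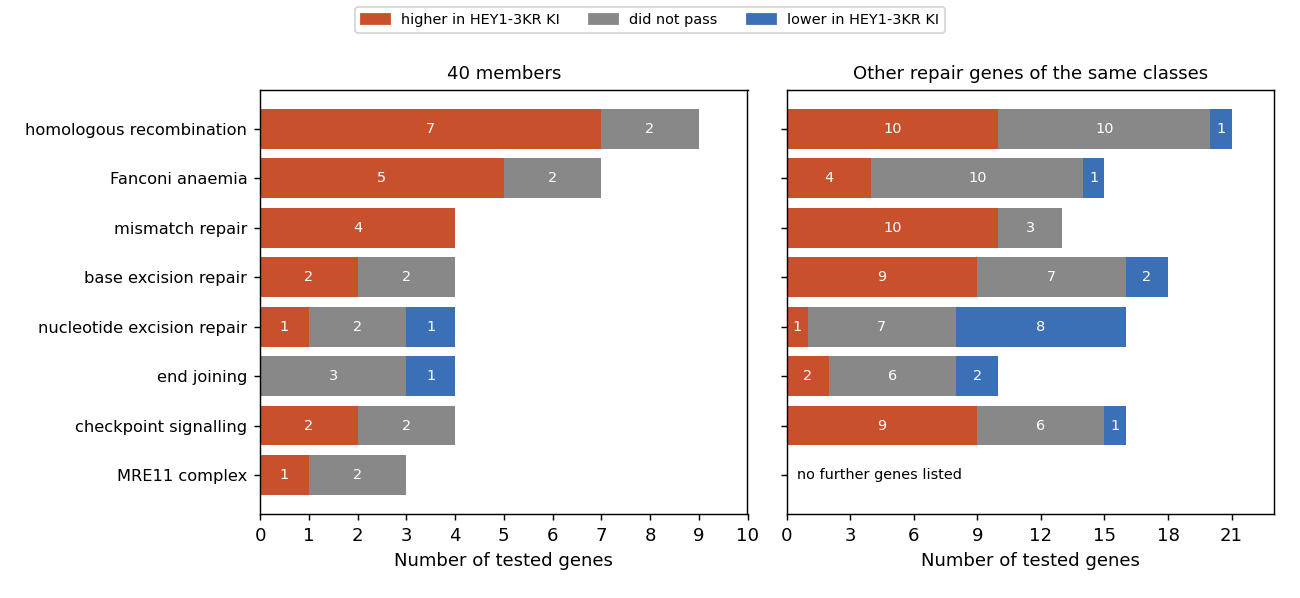
Number of tested genes that were higher, lower or did not pass in HEY1-3KR KI (limma adjusted p below 0.05), by repair class, for the 40 members on the left and for the other repair genes of the same classes on the right. Higher genes outnumber lower ones on both sides in homologous recombination, the Fanconi pathway, mismatch repair, base excision repair and checkpoint signalling. Lower genes outnumber higher ones in nucleotide excision repair on the right, 8 against 1.

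A subset of 13 of the 40 is known as S-phase or E2F-regulated genes (Brca1, Brca2, Bard1, Rad54l, Blm, Brip1, Fanca, Fancd2, Fanci, Msh6, Exo1, Ung and Chek1). Of these 12 rose, and Brca2 did not pass (median log2 fold change 0.36). Of the 26 tested genes outside that subset, 10 rose, 2 fell and 14 did not pass (median 0.11). The share that rose was 92.3% in the subset and 38.5% outside it, where 29.9% of all genes tested rose and 23.4% fell. That subset was listed with earlier results of these data known, so its counts describe the genes without serving as support. Proliferation markers moved alongside, a list that shares Pcna with the mismatch repair partners above. All 14 listed rose by 0.43 to 1.05 on the log2 scale (median 0.69), including Mki67, the antigen of cycling cells, 2.14-fold, Ccna2, the S and G2 phase cyclin, 2.04-fold, and the replicative helicase subunit Mcm5, 1.82-fold. Their share of summed FPKM went from 0.130% ± 0.00125 to 0.209% ± 0.00387 (SD, n = 3; exact permutation p = 0.1, two-sided). Whether the repair genes follow the share of cycling cells, and in which cell type, was not tested.

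**Figure D4:**
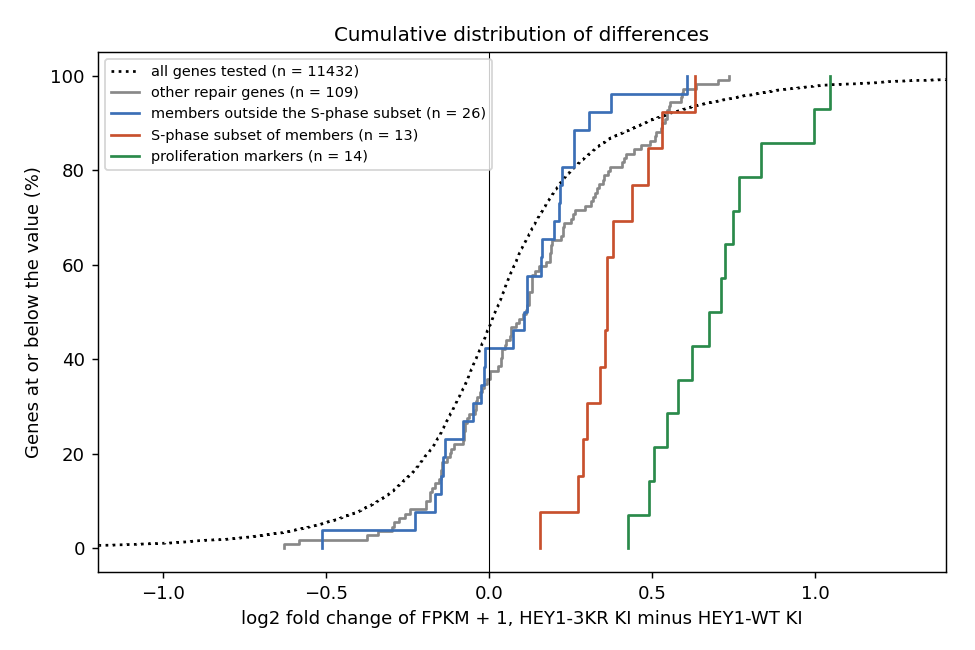
Cumulative distribution of log2 fold changes of FPKM + 1 (HEY1-3KR KI minus HEY1-WT KI) for all genes tested (dotted), other repair genes, repair members outside and inside the S-phase subset, and proliferation markers. The lists were chosen with earlier results of these data known. The S-phase subset (median 0.36) lies to the right of the remaining members (median 0.11) and to the left of the proliferation markers (median 0.69). This scale understates changes of low genes, and the subset is scarcer than the markers (median HEY1-WT KI level 2.38 against 21.3 FPKM). Their median ratios of mean FPKM were 1.41 and 1.67.

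Promoter windows of 300 bases, from 250 bases before to 50 after an annotated start (GRCm38.p6), were at hand for 32 of the 40 genes, all but Nbn, Prkdc, Rad50, Xpc, Fancd2, Exo1, Xrcc2 and Ddb2. For some genes, among them Bard1, Ercc1, Fancc and Xrcc6, that start lies inside the RefSeq span of the gene and not at its end. They were searched on both strands for the E2F words TTTCCCGC, TTTCGCGC, TTTGCCGC and TTTGGCGC. At least 1 such word was present in 8 of the 32 genes (25.0%), Bard1, Brca2, Chek2, Fancg, Msh3, Msh6, Rad51c and Xrcc6, against 4.95% of the 9118 tested genes with a window and 2.26% of all 32851 windows. Among the 7 tested genes with a word 5 rose (median log2 fold change 0.20), and among the 24 without a word 14 rose and 1 fell (median 0.24). Over all tested genes, 40.8% of those with a word rose and 28.5% of those without. Words bound by HEY proteins, called HEY words here, were the E-box CACGTG and CACGCG, which is not an E-box (both strands). At least 1 HEY word was present in 9 of the 32 genes (28.1%), against 29.3% of tested genes with a window and 15.4% of all windows. These were Apex1, Atm, Fancb, Fancc, Mre11a, Palb2, Parp1, Rad51c and Xrcc5. Among the 8 tested genes with a HEY word 3 rose (Fancb, Palb2 and Parp1) and 1 fell (median log2 fold change 0.11), and among the 23 without one 16 rose and 0 fell (median 0.27). Xpc, the other member that fell, had no window, so the count of falls rests on Xrcc5 alone. Over all tested genes, 24.7% of those with a HEY word rose and 30.9% of those without. No word of the sets searched overlapped a word of another set in these windows. CCAAT was in 19 of the 32 (59.4%, against 42.8%) and the CHR word TTTGAA in 1, Bard1 (3.12%, against 14.2%).

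The windows of Bard1 and Msh6, which rose and hold an E2F word, are shown first, with the E2F words in capitals. That of Xrcc5, the gene that fell most, follows with its HEY words in capitals, although 3 of the genes with such a word rose. Each reads 5′ to 3′ on the strand of the gene, at chr1:71102923-71103222 (minus strand), chr17:87974800-87975099 (plus strand) and chr1:72307171-72307470 (plus strand). A match is a description of the letters and not evidence of binding.
Bard1: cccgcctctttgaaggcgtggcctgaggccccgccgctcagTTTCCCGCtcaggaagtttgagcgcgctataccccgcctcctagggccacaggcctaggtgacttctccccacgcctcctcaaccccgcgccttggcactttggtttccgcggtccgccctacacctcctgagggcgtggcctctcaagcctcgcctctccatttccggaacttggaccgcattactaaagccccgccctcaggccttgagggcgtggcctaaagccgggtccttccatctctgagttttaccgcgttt
Msh6: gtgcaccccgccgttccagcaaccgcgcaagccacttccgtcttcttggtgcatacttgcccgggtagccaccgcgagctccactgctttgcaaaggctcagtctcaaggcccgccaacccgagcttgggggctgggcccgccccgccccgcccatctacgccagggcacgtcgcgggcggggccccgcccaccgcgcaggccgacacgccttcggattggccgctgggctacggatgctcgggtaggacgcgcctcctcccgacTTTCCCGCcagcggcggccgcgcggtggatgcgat
Xrcc5: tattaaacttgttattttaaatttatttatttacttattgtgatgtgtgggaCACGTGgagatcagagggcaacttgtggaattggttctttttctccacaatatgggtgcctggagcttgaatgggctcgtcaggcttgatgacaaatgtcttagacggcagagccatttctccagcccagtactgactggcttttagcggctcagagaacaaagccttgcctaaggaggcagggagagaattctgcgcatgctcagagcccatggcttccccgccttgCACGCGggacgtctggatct

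Counted from the start that each window takes, the Bard1 word begins at -209. The RefSeq span of Bard1, on the minus strand, reaches further upstream, to 71103141, so from that end the word would have another position. The Msh6 word begins at 15, after the start. The HEY words of Xrcc5 begin at -198 (CACGTG) and 30 (CACGCG).

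Several repair genes start next to a neighbour read in the opposite direction. In GENCODE M21 (GRCm38), 16 of the 40 had a protein-coding neighbour on the other strand whose start lay within 1000 bases, and in 15 pairs both genes were tested. In 3 pairs both rose, in 2 the calls were opposite, and the neighbours' median log2 fold change was 0.05. Among the pairs that rose together were Fancb with Mospd2, whose starts lie 217 bases apart, and Pms2 with Aimp2, 117 bases apart. Mospd2 rose 1.15-fold from 6.0 ± 0.0121 to 6.88 ± 0.465 FPKM and Aimp2 1.11-fold from 19.4 ± 0.628 to 21.6 ± 0.607 FPKM (limma adjusted p = 0.0241 and 0.0136). Brca1 rose while Nbr1, an autophagy receptor whose start lies 194 bases away, had a log2 fold change of -0.02 ± 0.0411 (limma adjusted p = 0.666). Fancd2 rose while Emc3, a membrane protein insertase subunit 30 bases away, had 0.01 ± 0.0364 (limma adjusted p = 0.849).

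In other pairs the members and neighbours differed in sign. Prkdc did not pass (log2 fold change -0.17 ± 0.0659), while Mcm4, a subunit of the replicative helicase that starts 466 bases away, rose 1.51-fold from 25.3 ± 1.20 to 38.4 ± 0.677 FPKM (limma adjusted p = 6.2e-06). Xpc fell and Lsm3, an RNA-processing gene 40 bases away, rose 1.34-fold (limma adjusted p = 0.00615). Chek2 rose and Hscb, an iron-sulphur cluster chaperone gene 202 bases away, fell from 11.7 ± 1.33 to 7.87 ± 0.716 FPKM (limma adjusted p = 0.00104). The labels do not say whether counting used strand, so reads of overlapping exons on opposite strands cannot be told apart. By GENCODE such overlap covered 61.7% of the exonic bases of Apex1 (with Pip4p1), 23.8% of Ddb2 (Acp2), 16.0% of Fanci (Polg), 16.4% of Fancc (a noncoding antisense gene), 15.4% of Rad54l (Lrrc41) and 13.7% of Fancl (Vrk2). Of the protein-coding partners, Polg and Lrrc41 had log2 fold changes of -0.05 and -0.06, where Fanci and Rad54l rose. For Prkdc, Xpc and Chek2 the exons of these neighbours did not overlap.

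**Figure D5:**
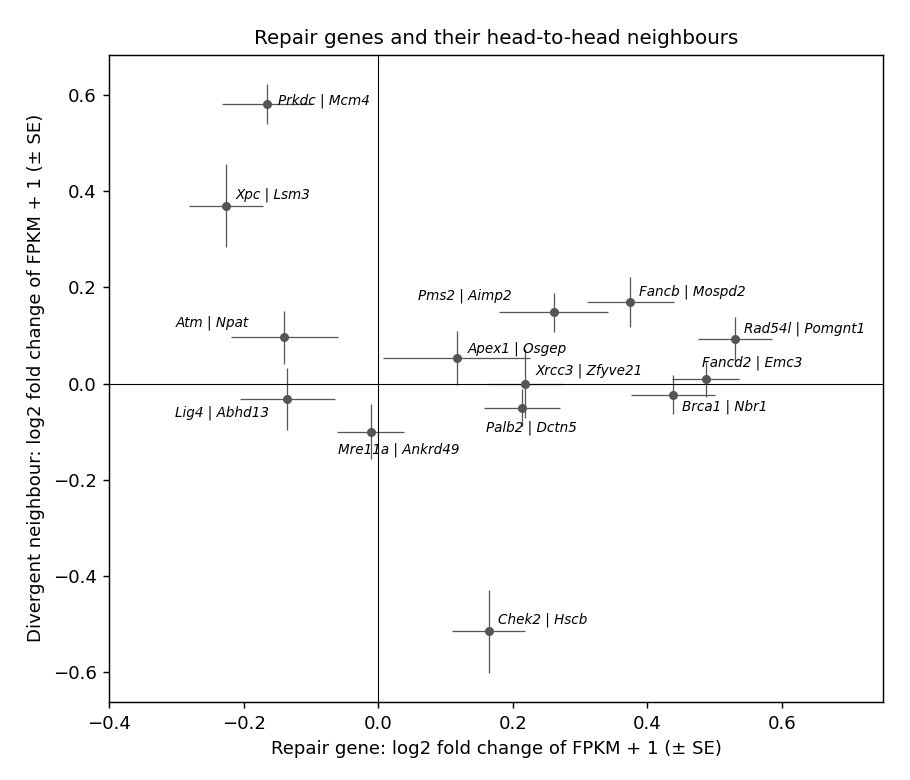
Log2 fold change of FPKM + 1 (HEY1-3KR KI minus HEY1-WT KI, ± SE from limma, n = 3 libraries per genotype) of repair genes on the horizontal axis and of the protein-coding gene that starts within 1000 bases on the opposite strand on the vertical axis, with 1 of the 15 tested pairs not shown. Fancb with Mospd2 and Pms2 with Aimp2 are both above 0, the neighbours of Rad54l, Brca1 and Fancd2 lie near 0, and Prkdc with Mcm4, Xpc with Lsm3 and Chek2 with Hscb lie on opposite sides of 0.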

How the data were processed

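Per the file headers, the authors deposited a single gene table of FPKM, a column for each of the 6 libraries. StringTie 1.3.3b, SAMtools 1.9, HISAT2 2.1.0 and FastQC 0.19.7, with build mm10, appear in the submitters' processing notes. Of annotation and strand handling nothing is known here. Because FPKM is scaled within a library, values are relative. Genes reaching 1 FPKM in 3 or more libraries were compared on log2(FPKM + 1) by limma 3.58.1 (R 4.3.3; variance trend, no covariates, two-sided, Benjamini-Hochberg, threshold 0.05). That scale understates changes of low genes. A run on simulated data checked the code only, since far fewer genes were changed there than were called here. Folds are ratios of mean FPKM, errors of FPKM and of shares are SD over 3 libraries, and errors of log2 fold changes are SE from limma. Libraries were grouped by the genotype in their titles.

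The labels give no depths. In 2396 genes with a single GENCODE transcript, FPKM times length fell within 0.1 of whole multiples of a fitted step for 46.8% to 59.3% of low values (20% if evenly spread), with 32.8 to 39.8 steps per FPKM and kilobase. Whole reads could thus not be had and count models were not used. No pair of libraries held identical values in more than 0.00875% of tested genes. All members are named, and of other repair genes the 2 of highest mean FPKM per class, and some items are not reported here. Members and lists were chosen with earlier results of these data known. Tables and figures were made with Python 3.11.15 (scipy 1.17.1, pandas 2.3.3, matplotlib 3.10.9, numpy 2.4.6). Alternatives covered the pseudocount, the filter, scaling, the variance trend, a replicate block and each library left out.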

Additional observations from a re-analysis of the deposited data

How the results depend on the processing

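Of the 24 repair genes that passed, 20 (18 higher, 2 lower) passed under all 12 alternatives, and Palb2, Fancg, Pms2 and Chek2 lost the call in at least 1. After quantile normalization the limma adjusted p was 0.0763 for Palb2, 0.0674 for Fancg and 0.0637 for Pms2. The number of members that rose was 22, and 18 after quantile normalization, 21 after median-of-ratios scaling and 19 to 22 with a library left out. The number that fell was 2, and 3 after median-of-ratios scaling or without the variance trend, 4 after quantile normalization and 2 to 5 with a library left out (5 without HEY1-3KR KI replicate 2). End joining genes that fell numbered 1, and 2 after median-of-ratios scaling or without the variance trend, 3 after quantile normalization, and 1 to 3 with a library left out. Checkpoint kinases that rose numbered 2, and 1 without the filter on low values, after median-of-ratios scaling or after quantile normalization, and 1 to 2 with a library left out, while 0 to 1 fell. Base excision genes that fell numbered 0 to 1. Chek2 had limma adjusted p of 0.051 without the filter, 0.074 with median-of-ratios and 0.0836 with quantile scaling. Values near 0 changed sign when a library was left out, over ranges of -0.104 to 0.0319 for Xpa, -0.0617 to 0.0359 for Atr and -0.0528 to 0.0235 for Mre11a in log2 fold change. Deviations of same-numbered libraries from their group means correlated at -0.19, 0.25 and -0.27. Those of different-numbered libraries ran from -0.24 to 0.38. With deviations from a mean of 3 libraries, these values cannot settle whether libraries were paired, by number or in another order. Under the replicate block, 23 members rose and 2 fell, Apex1 being added (limma adjusted p = 0.0417), and no other member call changed. With 3 libraries per genotype and levels mostly under 5 FPKM, small differences may be missed.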
